A study of Homo sapiens with 12 samples.

Results

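Transcript levels were compared between K562 cells after 4 h of dasatinib and K562 cells after 24 h of the vehicle DMSO, over all genes of the array. The samples were taken by their labelled treatment and time, 3 arrays with 4 h of drug and 3 with vehicle, and they make up 6 of the 12 arrays of the study. K562 is a human chronic myeloid leukaemia line with erythroid features that carries the BCR-ABL1 fusion kinase. Dasatinib inhibits ABL and SRC family kinases. Cells of the 4 h group received 100 nM dasatinib, and cells of the control group received 0.2% DMSO. Both were held in RPMI medium with 0.1% fetal bovine serum, after growth in medium with 10%. The other 6 arrays hold cells after 8 h and 24 h of the same drug dose. No vehicle sample was taken at 4 h, so the presence of the drug and the shorter time in low serum cannot be told apart. Whether the arrays in a group stem from separate cultures is not in the labels. A p-value here therefore gauges the spread within the groups of the 12 arrays and nothing wider.

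In chronic myeloid leukaemia the fusion kinase drives several pathways at once. It phosphorylates STAT5, which switches on survival and feedback genes such as PIM kinases and SOCS proteins. Through GRB2, GAB2 and RAS it drives the ERK kinases, which act on immediate early genes through the serum response factor and ETS factors, and it feeds PI3K signalling and MYC. ATF4, a factor whose translation rises when amino acids are short or proteins misfold, works in a separate stress pathway and induces genes of amino acid synthesis and uptake.

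Sequences of 4 promoters are shown because they belong to genes of the pathways that moved at 4 h. Each is the window of 250 bases before to 50 bases after a start of the gene in RefSeq (build GRCh38.p14). It is read along the strand of the gene, and capitals mark motif matches on either strand. CISH encodes a feedback inhibitor of cytokine signalling that STAT5 induces, and the capitals in its window mark the STAT motif TTCNNNGAA. The window lies at chr3:50611725-50612024 on the minus strand.
CISH: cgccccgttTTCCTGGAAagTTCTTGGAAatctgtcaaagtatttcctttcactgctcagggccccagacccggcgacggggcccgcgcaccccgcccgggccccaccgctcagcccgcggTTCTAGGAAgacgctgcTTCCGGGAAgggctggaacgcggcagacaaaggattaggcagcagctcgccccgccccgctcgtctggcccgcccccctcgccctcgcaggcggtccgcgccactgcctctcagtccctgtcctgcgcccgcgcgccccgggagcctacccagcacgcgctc
The 4 matches start 241, 230, 129 and 112 bases before the gene's start. At least 1 match is present in 7.66% of 35116 promoter windows, and at least 4 are present in 0.0199%.

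EGR1 is an immediate early transcription factor, and the capitals in its window, chr5:138465229-138465528 on the plus strand, mark CArG boxes, the element that the serum response factor binds.
EGR1: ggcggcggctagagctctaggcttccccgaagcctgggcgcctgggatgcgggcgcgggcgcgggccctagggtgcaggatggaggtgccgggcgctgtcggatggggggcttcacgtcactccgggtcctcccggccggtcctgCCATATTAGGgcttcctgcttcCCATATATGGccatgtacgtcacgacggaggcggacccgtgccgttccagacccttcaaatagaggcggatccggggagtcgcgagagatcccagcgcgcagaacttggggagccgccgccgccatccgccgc
The 2 boxes start 105 and 83 bases before the gene's start. Of all windows 1.29% hold at least 1 such box and 0.0313% hold at least 2.

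MT1X encodes a metallothionein, a small protein that binds zinc and copper, and the capitals in its window, chr16:56682220-56682519 on the plus strand, mark the core of the metal response element, TGCACNC or TGCGCNC, the site of the zinc-sensing factor MTF1.
MT1X: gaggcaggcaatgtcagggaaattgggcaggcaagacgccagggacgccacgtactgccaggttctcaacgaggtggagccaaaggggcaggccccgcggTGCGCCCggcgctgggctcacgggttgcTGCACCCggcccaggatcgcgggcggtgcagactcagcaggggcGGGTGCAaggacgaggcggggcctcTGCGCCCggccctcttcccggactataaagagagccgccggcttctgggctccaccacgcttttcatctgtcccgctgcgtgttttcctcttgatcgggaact
It holds 4 matches, 3 on its own strand and 1 on the other. This short core is common, with at least 1 match in 29.6% of windows and at least 4 in 0.601%.

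ASNS makes asparagine and is a known ATF4 target, and the capitals in its window, chr7:97872359-97872658 on the minus strand, mark the composite element TGATGNAA that ATF and C/EBP factors bind.
ASNS: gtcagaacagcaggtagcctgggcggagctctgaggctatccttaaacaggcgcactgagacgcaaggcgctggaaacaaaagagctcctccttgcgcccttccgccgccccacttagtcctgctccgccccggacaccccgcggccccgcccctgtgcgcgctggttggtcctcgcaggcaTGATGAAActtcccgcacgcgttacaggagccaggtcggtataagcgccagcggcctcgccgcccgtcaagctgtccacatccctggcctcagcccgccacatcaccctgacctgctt
The match starts 68 bases before the start used for this window, and 3.62% of windows hold this element. Another window of ASNS held no match and is not shown. A match describes the letters of a window and does not show that a factor bound there. None of the motifs overlaps another as printed.

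All values are normalized log2 signals and changes are log2 fold changes of 4 h dasatinib over DMSO, 3 arrays against 3. The standard error (SE) comes from a limma fit over all 12 arrays, so it also uses the spread of the 8 h and 24 h groups. The p-values are Benjamini-Hochberg adjusted over 10208 genes. Genes with an adjusted p below 0.05 were called, and "rose" or "fell" is used only of called genes. The arrays had median signals of 135.6 to 160 and detected 17175 to 18927 of 47314 probes, and Pearson's r between arrays of the same group was 0.989 to 0.992 over genes, which are not independent replicates. Of 12 K562 markers 10 were detected and tested, among them GATA1, KLF1, TAL1 and the globins HBG1 and HBE1. Some genes of other cell types also passed, 1 of 6 lymphoid, 2 of 6 granulocyte and monocyte and 3 of 7 fibroblast and epithelial markers, and none of them was called. CD3D, a T-cell receptor subunit, averaged 9.93 at 4 h and 9.94 in DMSO, and EPCAM, an epithelial adhesion protein, averaged 12.01 at 4 h and 11.71 in DMSO. Whether these probes measure only the gene they are named for was not tested.

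After 4 h of dasatinib, 1219 of 10208 genes (11.9%) were called, 540 higher (5.29%) and 679 lower (6.65%). Counts of called genes in the lists below are to be read beside these shares. Changes of at least 2-fold were found for 206 genes (2.02%), and falls outnumbered rises among them, with 135 lower (1.32%) and 71 higher (0.696%). The arrays of the groups did not overlap for 2829 genes (27.7%) and for 1211 of the 1219 called ones. Separated groups, where given below for a called gene, are therefore usual and add no support to its call. Across all genes the median change was 0.00. Quantile normalization gives all arrays the same distribution, so a shift of all genes could not be seen. Of 4228 probes without a single gene name 112 (2.65%) were called. Called genes moved by a median of 0.63 where higher and of -0.64 where lower. Of the 679 lower genes, 341 had their highest DMSO value on array C, 181 on array A and 157 on array B. Without DMSO array C, 794 genes were called, 344 higher and 450 lower, which is below the number called over all arrays by more than 1.5 times.

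**Figure D1:**
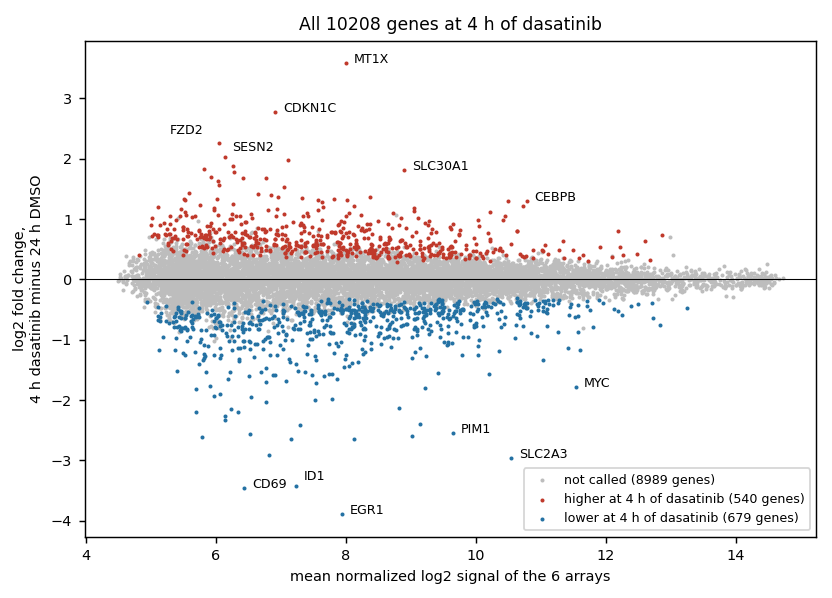
Log2 fold change at 4 h of dasatinib over 24 h DMSO (vertical axis) against the mean normalized log2 signal of the 6 arrays (horizontal axis), 1 point per gene. The 679 genes called lower reach further from 0 than the 540 called higher, from EGR1 at -3.89 to MT1X at 3.58.

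The deepest falls were in genes with different jobs: a growth-factor-induced transcription factor, a glucose transporter, feedback inhibitors, a survival kinase and cytoskeletal proteins. EGR1, whose CArG boxes are shown above, had 6.25, 6.07 and 5.66 on the 4 h arrays, against 9.65, 9.98 and 10.02 on the DMSO arrays, and fell by 3.89 (SE 0.19, adjusted p = 1.4e-07). ID1, which blocks basic helix-loop-helix factors, had 5.25, 5.65 and 5.66 at 4 h, against 8.81, 8.97 and 9.06 in DMSO, and fell by 3.43 (SE 0.13, adjusted p = 1.7e-08). SLC2A3, a high-affinity glucose transporter, had 9.04, 9.07 and 9.08 at 4 h, against 12.16, 11.85 and 12.05 in DMSO, and fell by 2.96 (SE 0.11, adjusted p = 1.6e-08). In each case the groups stood far apart, and the 3 SLC2A3 arrays at 4 h were nearly equal. CD69, an activation antigen of blood cells, was undetected at 4 h, with 4.78, 4.83 and 4.51 there, against 8.09, 8.10 and 8.30 in DMSO, and was at least 7.27-fold lower, while its other probe gave -1.18. BHLHE40, a transcriptional repressor that responds to hypoxia and the circadian clock, had 8.15, 7.62 and 7.38 at 4 h, against 10.49, 10.15 and 10.28 in DMSO, and fell by 2.59 (SE 0.20, adjusted p = 5.7e-06). ENC1, an actin-associated protein, fell by 2.64, with 6.73 to 6.88 at 4 h and 9.37 to 9.55 in DMSO.

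Further genes of the 15 deepest falls follow. The 15 were taken only from called genes whose groups do not overlap, so that separation was set by the choice. PLD6, a phospholipase of the mitochondrial surface, had 7.75, 8.16 and 7.91 at 4 h, against 10.34, 10.34 and 10.33 in DMSO, and fell by 2.39 (SE 0.12); a further probe to it read -1.86. STARD8, a GTPase-activating protein, fell by 2.64 (SE 0.22). ANKRD55, an ankyrin-repeat protein, fell by 2.56 (SE 0.16), and TLNRD1, a talin-related actin-bundling protein, fell by 2.33 (SE 0.18). At 4 h ANKRD55 and TLNRD1 were each detected on 1 of the 3 arrays and ID1 on 2. Among the 15 largest rises, SESN2, GATA5, SLC6A9 and ZNF446 were detected on 1 of the 3 DMSO arrays and ULBP1 and MXD3 on 2. The plot of the largest changes by array sets these genes out with the largest rises.

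**Figure D2:**
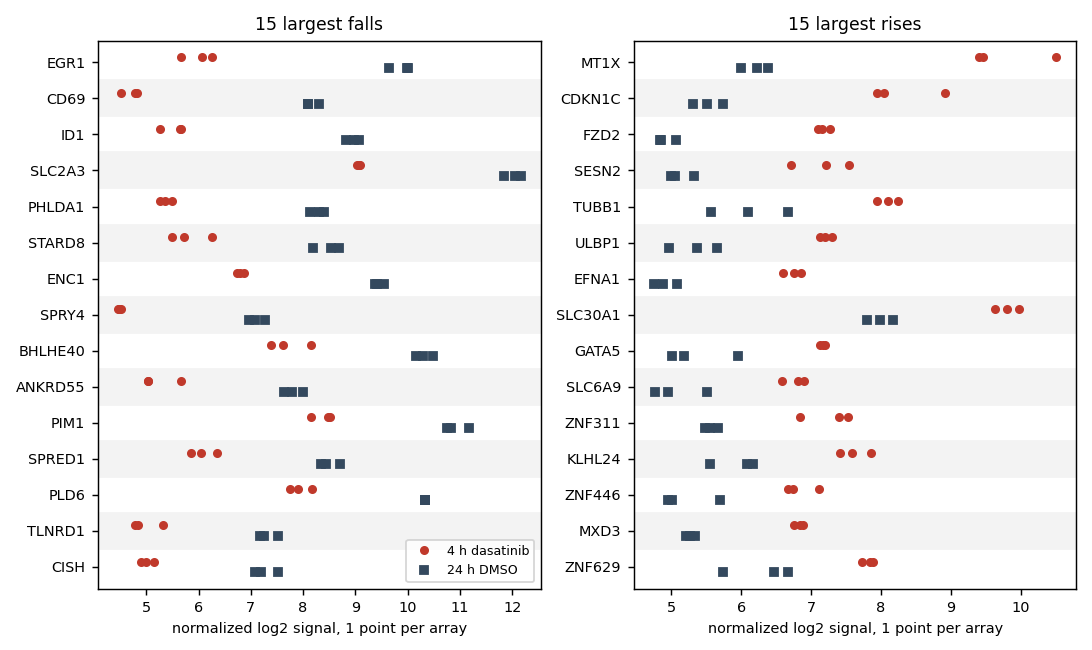
Normalized log2 signal per array for the 15 genes with the largest falls (left panel) and the 15 with the largest rises (right panel), 4 h dasatinib as circles and 24 h DMSO as squares, 3 arrays each. Genes were taken only from called ones whose groups do not overlap, and MT1X and CDKN1C each have 1 array at 4 h above the other 2.

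Genes that STAT5 induces fell nearly as a group. Of 9 tested members 8 fell, all by at least 2-fold, and 0 rose, with a median of -1.82, or -1.33 with undetected members at their bound, beside 0.00 over all genes. The members that fell include ID1, the lowest at -3.43, and SPRED1. Both genes also belong to lists of other pathways, ID1 to that of BMP and SPRED1 to that of ERK feedback inhibitors. PIM1, a survival kinase, had 8.47, 8.52 and 8.15 at 4 h, against 10.83, 11.17 and 10.76 in DMSO, and fell by 2.54 (SE 0.14, adjusted p = 4.2e-07). CISH had 4.99, 4.89 and 5.15 at 4 h, where it was undetected on all 3 arrays, against 7.19, 7.52 and 7.08 in DMSO, and was at least 3.91-fold lower. The DMSO arrays of both genes lay wholly above those at 4 h, which their choice among the deepest falls had required. SOCS1, which inhibits JAK kinases, was undetected at 4 h and at least 2.48-fold lower. SOCS2, a suppressor of growth hormone and cytokine receptors, had 10.44, 10.18 and 10.46 at 4 h, against 11.73, 11.50 and 11.86 in DMSO, and fell by 1.33 (SE 0.12), with -1.46 on its other probe. BCL2L1, which encodes the survival protein BCL-XL, had 9.62, 9.85 and 9.81 at 4 h, against 10.95, 10.98 and 10.91 in DMSO, and fell by 1.18 (SE 0.14), and PIM2 fell by 1.04 (SE 0.09). CCND2, which encodes cyclin D2, was the member not called at 4 h, at 7.31 ± 0.12 against 7.82 ± 0.30 in DMSO (SD, n = 3 each; adjusted p = 0.055 by limma), and it stood at 5.83 after 8 h and 5.69 after 24 h. It was called in 7 of 15 alternative settings, among them without DMSO array C (adjusted p = 0.0411). Of the 7 members with a promoter window, 1, CISH, held the STAT motif.

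Of the signal chain itself, 12% of the RAS, PI3K and adaptor genes were called, which is near the 11.9% over all genes. In the kinase list 21.4% were called. All the called genes of both lists fell. None of 25 RAS, PI3K and adaptor genes rose (1 did without 4 h array A, 4 h array B or DMSO array C) and 3 fell, and of 14 dasatinib target kinases and BCR 0 rose and 3 fell. ABL1, the kinase portion of the fusion, averaged 10.51 ± 0.10 at 4 h and 10.41 ± 0.08 in DMSO (SD, n = 3 each), and BCR averaged 5.84 ± 0.09 at 4 h and 5.78 ± 0.31 in DMSO. Neither gene was called, and a probe to ABL1 or BCR does not tell the fusion from the normal gene. GAB2, the adaptor that couples BCR-ABL1 to PI3K, had 8.16, 8.07 and 7.96 at 4 h, against 8.85, 8.76 and 9.25 in DMSO, and fell by 0.89 (SE 0.13, adjusted p = 0.001). PIK3CB, a PI3K catalytic subunit, fell by 0.75 (SE 0.13). INPP1, an inositol phosphatase, had 6.75, 6.19 and 6.63 at 4 h, against 8.21, 8.24 and 9.10 in DMSO, and fell by 2.00 (SE 0.21, adjusted p = 8.1e-05). Its DMSO array C stood above the other 2, and without it the fall was 1.70 in size (log2 fold change -1.70). Of the kinases, LYN, a SRC family member of blood cells, fell by 0.60 (SE 0.09), YES1 fell by 0.73 (SE 0.15), and SRC gave -0.37 (SE 0.18, adjusted p = 0.24). DDR2 was the third kinase that fell. It was not called without background correction (adjusted p = 0.0544) or in the values the authors deposited (adjusted p = 0.105).

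Receptors of cytokines moved in both directions. Of 20 tested receptor, JAK and STAT genes 4 fell and 1 rose, 25% called beside 11.9% over all genes. EPOR, the erythropoietin receptor, had 8.74, 8.69 and 8.87 at 4 h, against 7.83, 7.63 and 7.61 in DMSO, and rose by 1.07 (SE 0.12, adjusted p = 0.00014). IL6ST, the shared receptor chain of the interleukin 6 family, fell by 1.01 (SE 0.14), with -0.29 on its other probe, and STAT3 fell by 0.62 (SE 0.13). TNFRSF1A, which also belongs to the death list below, and IL4R were the other fallers. IL4R lost its call without 4 h array A or B or DMSO array B or C (adjusted p = 0.0691 to 0.128). It was called in 6 of 15 alternative settings. STAT5A (-0.20, SE 0.12) and STAT5B (-0.28, SE 0.09) did not pass the test, though STAT5B did without 4 h array A (adjusted p = 0.0476).

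Most tested genes of ERK pathway output fell. Of 17 tested feedback inhibitors and ETS targets, 11 fell, 10 of them by at least 2-fold, and 1 rose, with a median of -1.47. SPRY4, a Sprouty protein that restrains receptor signalling to RAS, had 4.46, 4.47 and 4.51 at 4 h and was undetected there, against 6.96, 7.08 and 7.27 in DMSO, and was at least 3.49-fold lower. SPRED1, which blocks RAF activation, had 6.35, 6.05 and 5.85 at 4 h, against 8.70, 8.35 and 8.44 in DMSO, and fell by 2.41 (SE 0.21, adjusted p = 1.3e-05). CCND1, which encodes cyclin D1, was undetected at 4 h, with 4.61, 4.68 and 4.48, against 7.08, 6.86 and 6.44 in DMSO, and was at least 2.82-fold lower. The groups were apart for each of the 3 genes, which the choice of SPRY4 and SPRED1 had required. IER3, a stress-inducible survival protein, fell by 1.79 (SE 0.14), FOSL1, a FOS family factor, by 2.15 (SE 0.25; detected on 1 of 3 arrays at 4 h), and ETV5, an ETS factor, by 1.65 (SE 0.12), with -0.72 on its other probe. PHLDA1 fell by 2.91 on its brighter probe, while its other probe gave -0.07. Of the phosphatases of ERK, the nuclear DUSP5 fell by 1.47 (SE 0.25). The cytoplasmic DUSP6 was not called and averaged 5.35 ± 0.26 at 4 h and 5.58 ± 0.42 in DMSO (SD, n = 3 each; adjusted p = 0.54 by limma) with overlapping groups. The member that rose was KCNN4, a potassium channel opened by calcium, with 0.40 (SE 0.11, adjusted p = 0.035), and leaving out any 1 of the 6 arrays ended that call (adjusted p = 0.0522 to 0.105).

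Immediate early genes fell by smaller steps. Of 21 tested, 13 fell, 4 of them by at least 2-fold, and 1 rose, with a median of -0.51. After EGR1, FOSL1 and IER3 came IER2, a nuclear regulator, which had 6.97, 6.79 and 6.85 at 4 h, against 7.86, 8.15 and 7.85 in DMSO, and fell by 1.08 (SE 0.15, adjusted p = 0.0007). ZFP36, an RNA-binding protein that speeds decay of cytokine messages, fell by 0.69 (SE 0.13), and the AP-1 factors JUNB (detected on 1 of 3 arrays at 4 h) and JUN fell by 0.69 (SE 0.17) and 0.51 (SE 0.14). SRF, the serum response factor itself, had 10.57, 10.75 and 10.78 at 4 h, against 11.15, 11.11 and 11.38 in DMSO, and fell by 0.51 (SE 0.11, adjusted p = 0.0078). DUSP1, an early phosphatase of stress kinases, averaged 8.85 at 4 h and 8.75 in DMSO and was not called. ATF3 was the gene that rose and is described with the ATF4 pathway. With 4 h array B or DMSO array C left out, 8 members fell. JUNB lost its call without array A or B of either group (adjusted p = 0.0557 to 0.0646), and JUN without 4 h array A or B or DMSO array A or C (adjusted p = 0.0548 to 0.131). The CArG box was found in 2 of 15 members with a promoter window, counting a member if any of its windows matched.

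MYC, the growth-promoting factor, had 10.68, 10.46 and 10.82 at 4 h, against 12.66, 12.30 and 12.34 in DMSO, and fell by 1.78 (SE 0.13, adjusted p = 5.5e-06), with -1.67 on its other probe. Over the MYC, MAX and MXD network 3 of 9 tested genes rose, 2 fell and 4 were not called. The risers were 3 MXD genes, whose products compete with MYC for the shared partner MAX. MXD3 had 6.84, 6.76 and 6.88 at 4 h, against 5.22, 5.26 and 5.33 in DMSO, and rose by 1.56 (SE 0.12, adjusted p = 5.5e-06). MXD4 rose by 0.67 (SE 0.14) and MXD1 by 0.65 (SE 0.18), though MXD1 lost its call without array A of the 4 h or the DMSO group (adjusted p = 0.108 and 0.0991) or array B of either (adjusted p = 0.0942 and 0.098). MLX, a MAX-like factor, also fell by 0.86 (SE 0.17), with -0.31 on its other probe. MAX gave -0.57 (SE 0.25, adjusted p = 0.18). Of 46 ribosome biogenesis factors, many of which MYC induces, 13 fell and 0 rose, with a median of -0.27. They included URB2, a nucleolar factor, which had 8.71, 8.45 and 8.53 at 4 h, against 9.89, 9.69 and 9.55 in DMSO, and fell by 1.15 (SE 0.11, adjusted p = 3.9e-05), PNO1, a small-subunit assembly factor, which fell by 0.97 (SE 0.13), and RRS1, a large-subunit factor, which fell by 0.77 (SE 0.09). In contrast, 0 of 72 cytosolic ribosomal protein genes were called in either direction, with a median of 0.00 and a range from -0.30 to 0.22.

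ID1 was not the only fall among genes of BMP, activin and TGF-beta signalling. Of 16 tested, 7 fell and 1 rose, with a median of -0.25. ACVR1B, an activin receptor, had 7.12, 7.42 and 7.20 at 4 h, against 8.44, 8.48 and 9.17 in DMSO, and fell by 1.46 (SE 0.18, adjusted p = 0.00029). TGIF2, a repressor that binds SMADs, had 7.45, 7.46 and 7.57 at 4 h, against 8.84, 8.88 and 8.88 in DMSO, and fell by 1.37 (SE 0.10, adjusted p = 5.7e-06). BAMBI, a decoy receptor, fell by 1.09 (SE 0.14), ID2 by 0.93 (SE 0.18) and the BMP receptor ACVR1 by 0.88 (SE 0.13). SMAD6, an inhibitory SMAD that BMP induces, gave -0.22 (SE 0.11, adjusted p = 0.25). INHBE, an activin subunit and a known gene of the ATF4 response, was the member that rose. It was undetected in DMSO and at least 1.91-fold higher.

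**Figure D3:**
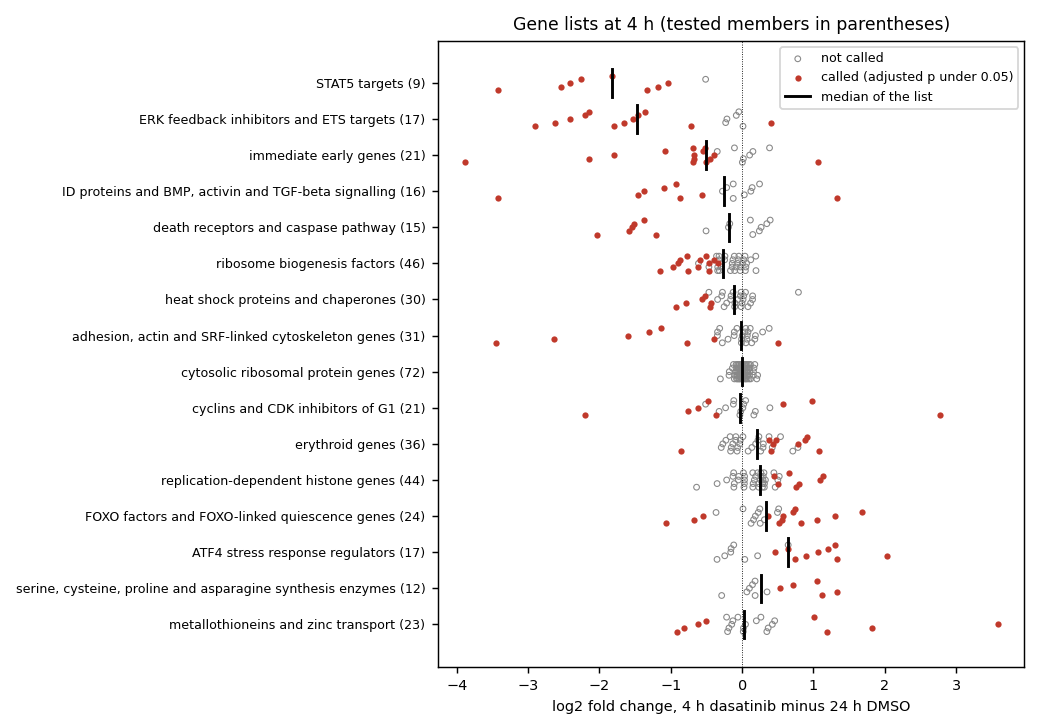
Log2 fold change at 4 h of dasatinib over 24 h DMSO (horizontal axis) for the tested members of 16 gene lists, 1 point per gene, filled where called; thick bars mark list medians. STAT5 targets have a median of -1.82 and ATF4 regulators of 0.64, while the 72 ribosomal protein genes lie between -0.30 and 0.22.

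Many regulators of the ATF4 pathway rose. Of 17 tested, 9 rose, 5 of them by at least 2-fold, and 0 fell (1 did without DMSO array B), with a median of 0.64. DDIT3, 1 of the 9, lost its call without 4 h array B or C or DMSO array A or C (adjusted p = 0.059 to 0.11). It was called in 7 of 15 alternative settings. ATF4 itself had 13.28, 13.11 and 13.31 at 4 h, against 12.39, 12.40 and 12.69 in DMSO, and rose by 0.74 (SE 0.11, adjusted p = 0.00078), with 0.87 and -0.10 on its other probes. CEBPB, a C/EBP factor that pairs with ATF4, had 11.29, 11.52 and 11.50 at 4 h, against 10.06, 10.20 and 10.13 in DMSO, and rose by 1.31 (SE 0.09, adjusted p = 3.8e-06). SESN2, a sestrin that restrains the growth kinase mTORC1, had 6.71, 7.21 and 7.54 at 4 h, against 5.32, 4.99 and 5.05 in DMSO, and rose by 2.03 (SE 0.24, adjusted p = 0.0002). All 3 genes were higher on every array at 4 h than on any DMSO array, which the choice of SESN2 had required. DDIT4, another inhibitor of mTORC1, had 11.22, 11.32 and 11.45 at 4 h, against 9.97, 9.74 and 10.65 in DMSO, and rose by 1.21 (SE 0.20, adjusted p = 0.0017). ATF3, a stress-induced repressor, had 6.36, 6.37 and 6.96 at 4 h, against 5.86, 5.31 and 5.32 in DMSO, and rose by 1.07 (SE 0.20, adjusted p = 0.0045). TRIB3, a pseudokinase and a well-known ATF4 target, averaged 10.31 ± 0.14 at 4 h and 10.27 ± 0.05 in DMSO (SD, n = 3 each; adjusted p = 0.9 by limma), with overlapping groups.

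Some enzymes that make amino acids rose as well. Of 12 enzymes of serine, cysteine, proline and asparagine synthesis, 5 rose and 0 fell, with a median of 0.27. CTH, which makes cysteine, had 8.51, 8.38 and 8.56 at 4 h, against 7.04, 7.18 and 7.25 in DMSO, and rose by 1.32 (SE 0.13, adjusted p = 3.1e-05). All 3 enzymes of the phosphorylated route to serine rose: PSAT1 by 1.12 (SE 0.09), PHGDH by 1.05 (SE 0.11) and PSPH by 0.71 (SE 0.17). ASNS had 12.18, 12.14 and 12.20 at 4 h, against 11.52, 11.69 and 11.72 in DMSO, and rose by 0.53 (SE 0.12, adjusted p = 0.014). PSPH lost its call without 4 h array A, 4 h array C or DMSO array C (adjusted p = 0.0529, 0.0726 and 0.0591), and ASNS lost it without DMSO array A (adjusted p = 0.0568). Among 15 amino acid transporters 3 rose and 1 fell. SLC6A9, a glycine transporter, had 6.59, 6.82 and 6.91 at 4 h, against 4.96, 5.52 and 4.77 in DMSO, and rose by 1.69 (SE 0.17, adjusted p = 4.2e-05). SLC1A4, a neutral amino acid transporter, was undetected in DMSO and at least 1.67-fold higher, and SLC7A5, the large neutral amino acid carrier, gave 0.17 (SE 0.10, adjusted p = 0.29). SLC25A22, a mitochondrial glutamate carrier, was the transporter that fell, by 0.60 (SE 0.10). Of 18 cytosolic aminoacyl-tRNA synthetases, which load tRNAs, 4 rose and 0 fell, the 4 by 0.32 to 0.49, and 1 or 2 rose where any array other than 4 h array B was left out. The element shown in the ASNS window was found in 2 of 9 synthesis enzymes, 5 of 15 transporters and 3 of 14 regulators with a window. A gene counted if any of its windows matched, and several genes have more than 1. The 3.62% given above is per window, so it is not a like share.

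Some metallothioneins and zinc exporters rose, while some zinc importers fell. MT1X had 9.40, 9.45 and 10.51 at 4 h, against 6.38, 6.23 and 6.0 in DMSO, and rose by 3.58 (SE 0.28, adjusted p = 7.4e-06). SLC30A1, which pumps zinc out across the plasma membrane and is a classical MTF1 target, had 9.81, 9.63 and 9.97 at 4 h, against 7.80, 7.99 and 8.16 in DMSO, and rose by 1.82 (SE 0.14, adjusted p = 6.3e-06), with 1.72 on its other probe. MT1F rose by 1.19 (SE 0.17) and MT1E by 1.01 (SE 0.20). These were 3 of the 7 metallothioneins tested. Of 8 SLC30 zinc carriers tested over the whole array 2 rose and 1 fell, and the second riser was SLC30A2, a vesicular zinc exporter outside the metal list, with 5.39, 5.28 and 5.89 at 4 h, against 4.49, 4.54 and 4.50 in DMSO, where it was undetected, and at least 1.22-fold higher. MT1G (0.46), MT2A (0.42), MT1H (0.35) and MT1B (0.02) did not pass the test. All 7 metallothionein probes were highest on array C among the 3 arrays at 4 h, and without that array MT1X rose by 3.22. The transcripts of this family are nearly identical, so a probe may take up signal from a relative. Of 10 SLC39 importers 3 fell: SLC39A6 by 0.92 (SE 0.17), SLC39A10 by 0.82 (SE 0.12) and SLC39A14 by 0.51 (SE 0.11). The carrier that fell was SLC30A7, of the Golgi, which fell by 0.62 (SE 0.14), a call lost without 4 h array C, DMSO array A or DMSO array C (adjusted p = 0.0528, 0.0512 and 0.0549). MTF1 itself averaged 6.60 at 4 h and 6.75 in DMSO and was not called. Over the whole metal list 11 of 18 members with a window held the response element core. A member counted if any of its windows matched, while the 29.6% given above is per window. The number of matches did not follow the calls. MT2A and MT1H, not called, held 8 matches each and MT1B, not called, held 3. MT1X and SLC30A1, which rose, held 4 and 2.

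FOXO factors, which PI3K and AKT hold in check, and genes linked to them were called in both directions. Of 24 FOXO factors and linked quiescence genes, 10 rose and 3 fell, with a median of 0.34. CITED2, a transcriptional coregulator, had 11.01, 11.20 and 11.22 at 4 h, against 9.92, 9.99 and 9.60 in DMSO, and rose by 1.31 (SE 0.11, adjusted p = 1.3e-05). KLHL24, a ubiquitin ligase adaptor, had 7.86, 7.41 and 7.58 at 4 h, against 6.17, 5.55 and 6.09 in DMSO, and rose by 1.68 (SE 0.17, adjusted p = 5.7e-05). CCNG2, a cyclin that slows division, was undetected in DMSO and at least 1.5-fold higher, and FOXO3 rose by 0.82 (SE 0.12), with 0.76 on its other probe. Against these, GADD45A, a growth arrest gene that FOXO and p53 can induce, had 8.87, 9.01 and 9.20 at 4 h, against 10.04, 10.12 and 10.13 in DMSO, and fell by 1.07 (SE 0.10, adjusted p = 3.9e-05). Leaving out DMSO array B left 6 risers, and leaving out 4 h array A or DMSO array C left 1 faller.

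The inhibitors of cyclin-dependent kinases did not move together. Of 21 G1 cyclins, inhibitors and E2F factors, 3 rose and 5 fell, of which 2 or 3 fell where any array other than DMSO array B was left out. CDKN1C, which encodes p57, had 7.95, 8.04 and 8.91 at 4 h, against 5.73, 5.32 and 5.52 in DMSO, and rose by 2.78 (SE 0.22, adjusted p = 7.5e-06), or by 2.47 without 4 h array C. CDKN1B, which encodes p27, rose by 0.57 (SE 0.12), while CDKN1A, which encodes p21, fell by 0.48 (SE 0.14), a call lost without any 1 of the 6 arrays (adjusted p = 0.0582 to 0.113). CCND3, the cyclin D3 gene, had 12.35, 12.54 and 12.47 at 4 h, against 13.25, 13.13 and 13.24 in DMSO, and fell by 0.75 (SE 0.09, adjusted p = 0.00024). E2F2, a cell cycle factor, rose by 0.98 (SE 0.11). Among 33 DNA replication genes 0 rose (2 without DMSO array B) and 1 fell. Of 32 mitosis genes 2 rose (0 without DMSO array B, 1 without 4 h array A or B) and 0 fell. Of 44 histone genes 7 rose and 0 fell, with a median of 0.25, and H3C4, an H3 gene, rose by 1.13 (SE 0.09). Histone genes are near copies of each other and most of their transcripts lack the tail that the labelling primes on, so their probes are uncertain.

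TNF receptor genes fell together. All 5 tested in the list of death receptors and caspase pathway genes fell, each by at least 2-fold. Of the 15 genes of the whole list 6 fell and 0 rose (1 without DMSO array B). TNFRSF10B, which encodes the TRAIL receptor DR5, had 6.89, 6.65 and 6.53 at 4 h, against 8.19, 8.21 and 8.43 in DMSO, and fell by 1.59 (SE 0.18, adjusted p = 0.00011). TNFRSF10A, the other TRAIL death receptor, had 7.19, 7.44 and 7.60 at 4 h, against 8.82, 8.64 and 8.91 in DMSO, and fell by 1.38 (SE 0.19, adjusted p = 0.00056). TNFRSF21 (DR6), TNFRSF12A (the TWEAK receptor) and TNFRSF1A (TNF receptor 1) fell by 2.03 (SE 0.28), 1.52 (SE 0.20) and 1.21 (SE 0.20), with TNFRSF21 detected on 2 of 3 arrays at 4 h. The sixth member was on the protective side. CFLAR, which encodes the inhibitor c-FLIP, had 6.91, 6.69 and 6.22 at 4 h, against 7.99, 8.09 and 8.34 in DMSO, and fell by 1.54 (SE 0.16, adjusted p = 7.9e-05). The adaptor FADD averaged 10.01 at 4 h and 9.77 in DMSO and was not called. In the BCL2 family 3 of 14 fell and 0 rose (1 rose without 4 h array A or DMSO array B). They were the survival genes BCL2L1 and MCL1, which fell by 0.45 (SE 0.12), and the killer PMAIP1, or NOXA, which fell by 0.99 (SE 0.23). MCL1 lost its call without array B or C of either group (adjusted p = 0.0641 to 0.117), and PMAIP1 without 4 h array B or DMSO array C (adjusted p = 0.0598 and 0.0633). Among 31 adhesion, actin and cytoskeleton genes, a list that also holds CD69 and ENC1, 7 fell and 1 rose (0 without any single array other than DMSO array A), with a median of -0.01. CD59, which blocks the membrane attack complex of complement, had 6.76, 6.73 and 7.08 at 4 h, against 8.50, 8.49 and 8.39 in DMSO, and fell by 1.6 (SE 0.18, adjusted p = 0.00011), and CD47, which restrains engulfment by macrophages, fell by 1.30 (SE 0.20; detected on 2 of 3 arrays at 4 h). CD55, which dampens complement, fell by 0.77 (SE 0.20), a call lost without 4 h array C, DMSO array B or DMSO array C (adjusted p = 0.107, 0.101 and 0.0597).

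Ligands of the activating receptor NKG2D of natural killer cells were split. ULBP1 had 7.30, 7.12 and 7.19 at 4 h, against 5.65, 5.37 and 4.97 in DMSO, and rose by 1.88 (SE 0.15, adjusted p = 7.1e-06). MICB, a ligand of the same receptor, had 8.61, 8.71 and 8.56 at 4 h, against 9.39, 9.56 and 9.71 in DMSO, and fell by 0.93 (SE 0.10, adjusted p = 0.00012), and MICA fell by 0.76 (SE 0.13). Each of the 3 genes had groups that did not overlap, which the choice of ULBP1 had required.

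Receptors and ligands of Wnt and ephrin signalling supplied 2 of the largest rises. FZD2, a Wnt receptor, had 7.10, 7.27 and 7.16 at 4 h, against 5.07, 4.86 and 4.83 in DMSO, where it was undetected, and was at least 3.83-fold higher. EFNA1, an ephrin ligand, had 6.85, 6.59 and 6.76 at 4 h, against 5.08, 4.88 and 4.75 in DMSO, and was at least 2.83-fold higher. FZD4 rose by 0.74 (SE 0.12), while the Notch target HES1, detected on 1 of 3 arrays at 4 h, fell by 1.10 (SE 0.25), a call lost without 4 h array A, 4 h array B or DMSO array C (adjusted p = 0.0554, 0.0569 and 0.0572). In all 4 of 22 Wnt, Notch and ephrin genes rose and 4 fell, with a median of -0.06, and 1 or 2 fell without any 4 h array or DMSO array C. TUBB1, the beta tubulin of platelets, had 8.24, 7.95 and 8.10 at 4 h, against 6.67, 6.10 and 5.56 in DMSO, and rose by 1.99 (SE 0.21, adjusted p = 7.3e-05). It was among 5 of 14 tubulin genes that rose, with 0 falling (1 without DMSO array C). GATA5, a GATA factor known from heart and gut, had 7.20, 7.13 and 7.17 at 4 h, against 5.18, 5.95 and 5.01 in DMSO, and rose by 1.79 (SE 0.20, adjusted p = 0.00011). The zinc finger genes ZNF311, ZNF446 and ZNF629 rose by 1.69 (SE 0.16), 1.62 (SE 0.20) and 1.52 (SE 0.21). They belong to 293 numbered zinc finger genes of which 35 rose and 18 fell, with a median of 0.09, and 23 rose without DMSO array C.

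Of 24 tested glucose transporters and glycolytic enzymes 3 fell and 0 rose, 12.5% called, which is near the 11.9% over all genes. Besides SLC2A3 these were PFKFB3, which makes an activator of glycolysis, with 8.42, 8.43 and 8.27 at 4 h, against 9.64, 9.69 and 9.69 in DMSO, a log2 fold change of -1.30 (SE 0.09, adjusted p = 4.5e-06) beside -0.25 on its other probe, and PFKP, a phosphofructokinase, which fell by 0.59 (SE 0.09). The ubiquitous glucose transporter SLC2A1 averaged 11.58 at 4 h and 11.50 in DMSO, with overlapping groups. Of 30 chaperones 6 fell and 0 rose (1 without 4 h array B or DMSO array A), led by the heat shock gene HSPA1B, which fell by 0.93 (SE 0.17) and is a near copy of HSPA1A. Without 4 h array B, 4 h array C or DMSO array C, 3 chaperones fell. Of 36 autophagy and lysosome genes 6 rose (3 without 4 h array B, 4 h array C or DMSO array A) and 1 fell (3 without 4 h array A). Over all arrays 19.4% of this list was called, beside 11.9% of all genes. ULK1, the kinase that starts autophagy, had 9.14, 9.46 and 9.23 at 4 h, against 8.06, 7.97 and 8.52 in DMSO, and rose by 1.10 (SE 0.15, adjusted p = 0.00052), and SQSTM1, an autophagy receptor, rose by 0.80 (SE 0.09).

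A minority of erythroid genes rose at 4 h, by small steps. Of 36 tested 8 rose and 1 fell (2 without DMSO array A), with a median of 0.21. Besides EPOR, HBD, the delta globin gene, had 9.31, 9.28 and 9.24 at 4 h, against 8.33, 8.55 and 8.21 in DMSO, and rose by 0.91 (SE 0.10, adjusted p = 0.00011). ALAD, an enzyme of haem synthesis, rose by 0.89 (SE 0.14), with 0.29 on its other probe, and HBB, the beta globin gene, by 0.79 (SE 0.14). NFE2, an erythroid and megakaryocytic factor, went against the others, with 11.09, 11.11 and 11.21 at 4 h, against 12.02, 11.98 and 11.99 in DMSO, and fell by 0.86 (SE 0.09, adjusted p = 9.3e-05). GATA1, the master erythroid factor, gave -0.16 (SE 0.12, adjusted p = 0.45), with overlapping groups. Leaving out 1 array gave as few as 4 risers, without 4 h array B or DMSO array C. In these bulk samples fewer cells of a type and less RNA per cell cannot be told apart.

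The 4 h changes did not all have the same later level. The means given next are of 3 arrays each, in DMSO and then after 4, 8 and 24 h of dasatinib, as a description with no test. DMSO was sampled at 24 h only, so it is no starting level, and levels without drug at 4 h and 8 h are unknown. EGR1 averaged 9.88, 5.99, 6.25 and 6.28, so its level after 24 h lay close to that at 4 h. MYC averaged 12.43, 10.65, 11.06 and 11.39 and PIM1 10.92, 8.38, 8.62 and 9.19, lowest at 4 h in both cases. SLC2A3 averaged 12.02, 9.06, 8.51 and 7.31, lower at each later time. Several means were high at 4 h alone. ATF3 averaged 5.50, 6.57, 5.22 and 5.61, INHBE 4.84, 6.17, 4.91 and 4.96, and DDIT4 10.12, 11.33, 9.36 and 9.93. For these 3 genes the 4 h group was the highest of the 4. ATF4 averaged 12.50, 13.23, 12.17 and 13.36, with its lowest mean at 8 h. MT1X averaged 6.20, 9.79, 9.43 and 6.0, high at 4 h and 8 h alone, whereas SLC30A1 averaged 7.98, 9.80, 9.28 and 9.0 and was above DMSO at each time. CDKN1C averaged 5.52, 8.30, 9.32 and 9.39, and TUBB1 6.11, 8.09, 9.93 and 11.11, highest at 24 h. NFE2 had 11.98 to 12.02 on the DMSO arrays and averaged 11.14, 12.19 and 12.46 at the 3 times of dasatinib, so its low level was seen at 4 h alone, and CFLAR averaged 8.14, 6.60, 6.89 and 7.95.

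**Figure D4:**
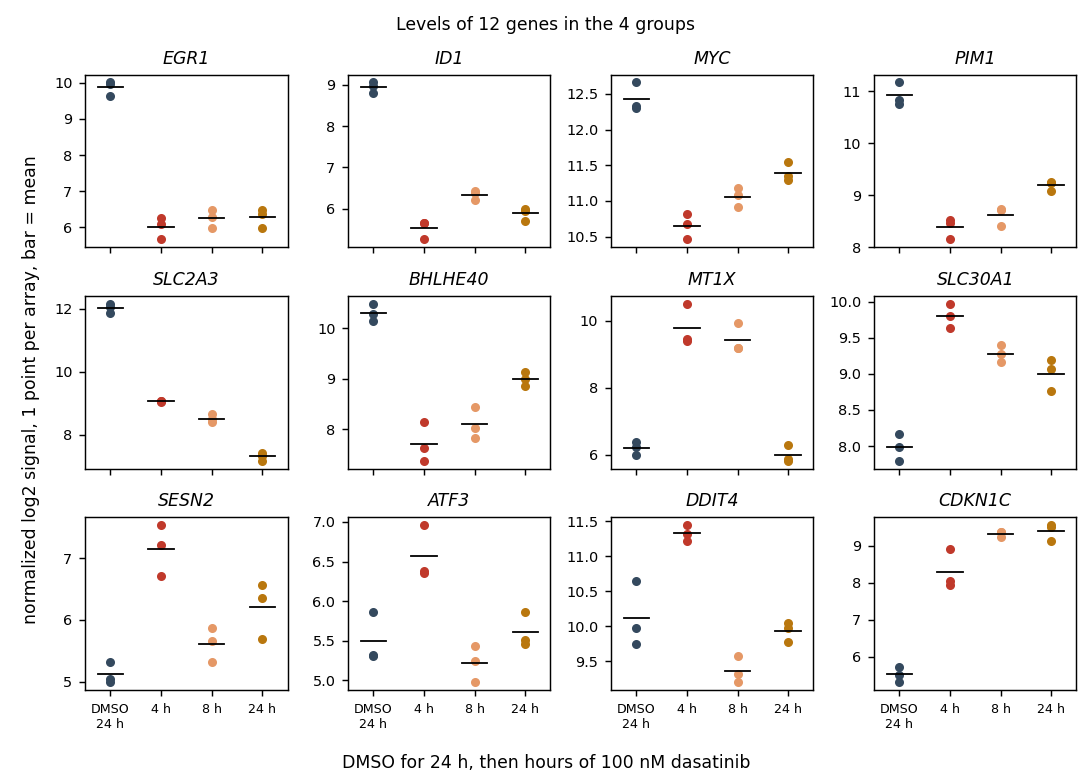
Normalized log2 signal per array (points) and group mean (bars) for 12 genes in 24 h DMSO and after 4, 8 and 24 h of 100 nM dasatinib, each panel on its own vertical scale. MT1X averages 9.79 at 4 h and 6.0 at 24 h, and SESN2, ATF3 and DDIT4 are highest at 4 h, while CDKN1C is highest at 24 h.

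Fold sizes of dim genes depended on the background correction more than their calls did. Without it EGR1 changed by -2.52 in place of -3.89, CISH by -0.88, MT1X by 2.37 and CDKN1C by 1.40, all still called, whereas the brighter SLC2A3 changed by -2.71 and MYC by -1.71.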

How the data were processed

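The deposited signals are intensity values, mean signals per probe from Illumina BeadChips, each followed, per the file headers, by a detection p-value against negative controls. The authors also deposited a value table on a log2-like scale, made by a method not given in the sources used here, and it served as an alternative. Signal columns named BMS were read as dasatinib, the drug of the labels; each ranked its probes as exactly 1 column of that table did, and that column was of the same group. Background was corrected from negative-control moments that detection p-values imply, and an offset of 16, quantile normalization and log2 followed, with neqc in limma 3.58.1 (R 4.3.3). A probe passed with a detection p under 0.05 on all 3 arrays of at least 1 of 4 groups. Of 47314 probes, 30108 named 1 gene in the platform annotation, 8 several and 17198 none. Per gene, the passing probe with the highest mean over 12 arrays was kept, which left 10208 genes; 4228 passing probes that name no gene or several formed a separate test.

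A model with 1 mean per group was fitted with limma to the 12 arrays (8 residual and 4.08 prior degrees of freedom), and the contrast of 4 h dasatinib minus DMSO was tested two-sided with empirical Bayes moderation and Benjamini-Hochberg adjustment. A gene undetected on all 3 arrays of 1 group is given as a bound, with each value there set no lower than the least value of any detected probe of that array. The fit was tested on artificial data with known changes. It recovered 22 of 67 changes of 0.5 log2 units (32.8%), 53 of 67 of 1 unit (79.1%) and 66 of 66 of 2 units. Of its 150 calls 9 were false. The changed genes were a smaller share of the 10208 than the 11.9% called in the data. The adjustment depends on that share, so these rates need not hold for the data. A gene that was not called may still have changed by a small step. The number of arrays limits the precision.

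The samples, gene lists and named genes were chosen with earlier results of these data known, so they are no independent evidence, and some list symbols and the histone pattern were updated to current names after the files were read. Named genes are the 15 largest rises and falls with groups that do not overlap, from each list described the 5 largest called members, members that moved against their list, members whose role the text needs, and genes fixed by name. Lists share members, such as ID1, SPRED1, FOSL1, IER3, ATF3 and TNFRSF1A. Alternatives were no background correction, an offset of 50, the authors' table, no detection filter, a detection p under 0.01, the mean of a gene's probes, the 6 arrays alone, an intensity trend, the column letter as a replicate block, and each array left out. Promoter windows come from RefSeq (GRCh38.p14).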

Additional observations from a re-analysis of the deposited data

How the results depend on the processing

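Of the counts over all genes, calls at any size stayed within 1.5 times the 1219 reported under the alternatives that kept all arrays, from 879 with the 6 arrays alone to 1384 without background correction, and no called gene among those named changed direction; 6 named genes that were not called did. Genes called at 2-fold numbered 206, and 39 without background correction, 114 with an offset of 50 and 22 in the authors' table, since these settings shrink the fold changes of dim probes. Probes without a single gene name gave 112 calls, and 61 with the 6 arrays alone. Leaving out 1 array in turn gave 794 to 968 called genes, 344 to 402 higher, 450 to 567 lower, 192 to 234 at 2-fold and 59 to 78 unnamed probes; the lowest number of called genes came without DMSO array C. With the column letter as a replicate block 1245 genes were called (558 higher, 687 lower) and 207 at 2-fold. Deviations of same-letter arrays from their group means correlated at 0.193, 0.035 and -0.008, so the letters were not taken to pair the arrays. The chip as a block was not run, as the headers name no chip.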

Other observations

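Some transcription factors of blood cells fell at 4 h; those named here were chosen after their values were seen, because they fell, so they do not describe such factors as a group. TAL1 rose by 0.37 (SE 0.10), a call lost without any 1 of the 6 arrays (adjusted p = 0.0579 to 0.0952), and GATA1 and KLF1 were not called. HHEX, a homeobox factor of early blood cells, had 7.58, 7.64 and 8.05 at 4 h, against 10.17, 9.75 and 9.75 in DMSO, and fell by 2.13 (SE 0.17, adjusted p = 8.2e-06). GATA2, the GATA factor of stem and progenitor cells, had 6.76, 6.57 and 7.05 at 4 h, against 8.82, 8.77 and 8.72 in DMSO, and fell by 1.98 (SE 0.19, adjusted p = 3.1e-05). MYB, a factor of progenitor growth, had 11.11, 11.02 and 10.92 at 4 h, against 12.17, 11.95 and 12.43 in DMSO, and fell by 1.17 (SE 0.12, adjusted p = 5.4e-05). The groups of each gene were apart, as they were for nearly all called genes. ETS2, RARA and WT1 fell by 1.54 (SE 0.11), 1.24 (SE 0.11) and 1.15 (SE 0.14). Mean GATA2 levels in DMSO and after 4, 8 and 24 h were 8.77, 6.79, 6.82 and 5.86, and those of MYB were 12.18, 11.02, 11.41 and 10.91.

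IL6, the inflammatory cytokine, also chosen after its values were seen, had 5.20, 5.36 and 5.17 at 4 h, where 1 of 3 arrays detected it, against 7.33, 7.26 and 7.71 in DMSO, and fell by 2.19 (SE 0.13, adjusted p = 5.5e-07).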
